A study of Danio rerio with 6 samples.

Results

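Ion exchangers and cotransporters of the solute carrier families Slc4, Slc8, Slc9, Slc12, Slc24, Slc26 and Slc34 were examined in *panx1a*-/- zebrafish larvae. The members were all genes of the count files whose symbol begins with one of these family names followed by "a" and a digit. The rule found 45 of the 15336 genes listed, in 7 families. Of these, 43 encode carriers and 2 do not: *slc9a3r1a* (now *nherf1a*) encodes a scaffold protein that binds Na+/H+ exchangers, and *slc34a2aas* is an antisense RNA that overlaps *slc34a2a*. In all, 40 members passed edgeR's filter on low counts and were tested.

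Total RNA of whole larvae was sequenced in 6 libraries at 6 days post fertilization (dpf). The 3 *panx1a*-/- libraries came from larvae of the Tupfel long fin (TL) strain that carry a short TALEN-induced frameshift deletion in *panx1a*, and the 3 control libraries came from TL larvae without it. The mutant line goes back to a single founder allele, its larvae were the offspring of homozygous mutants, and neither genotype was treated. The number of larvae per library and whether libraries came from separate clutches are not given in the sources used here, so p-values measure only the spread between these libraries. In bulk RNA of whole larvae, fewer cells of a type and less RNA per cell cannot be told apart.

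As background, these carriers move ions across membranes without using ATP themselves, by exchanging them (Na+ for H+, Na+ for Ca2+, Cl- for bicarbonate) or by moving them together (Na+ with Cl-, Na+ with phosphate), and most are driven by the Na+ gradient that the Na+/K+-ATPase builds. A freshwater larva loses salt to its surroundings and takes up Na+, Cl- and Ca2+ through ionocytes in its skin, while the pronephros recovers ions from the filtrate. In the retina, K+-dependent Na+/Ca2+ exchangers of the Slc24 family clear Ca2+ from photoreceptor outer segments, and in neurons Slc8 exchangers and Slc12 cotransporters set Ca2+ and Cl-.

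Gene counts totalled 13054759 to 17776115 per *panx1a*-/- library and 17349457 to 21472044 per TL library. The members took 6648 to 7774 of these in *panx1a*-/- libraries and 6462 to 7578 in TL libraries. Transcripts of *panx1a* itself were counted 22, 17 and 13 times in *panx1a*-/- libraries, against 110, 114 and 147 times in TL libraries (log2 fold change −2.72 with a standard error, SE, of 0.26, adjusted p = 0.00793 by edgeR's quasi-likelihood test). That call was lost without TL replicate 3 (adjusted p = 0.0637) and without *panx1a*-/- replicate 3 (adjusted p = 0.0649, same edgeR test). Uniquely aligned reads that fell on no annotated gene amounted to 48.4% to 59.4% in *panx1a*-/- libraries and 30.2% to 42.9% in TL libraries, so this share and the genotype cannot be told apart. Among the genes tested, 21.6% were called at an adjusted p below 0.05, 9.88% up and 11.8% down. For 47.5% the libraries of one genotype all lay beyond those of the other (23.4% higher and 24.1% lower in *panx1a*-/- larvae). Of the TL libraries, replicate 1 lay nearest to the *panx1a*-/- mean for each of the 6 members called, and of the *panx1a*-/- libraries replicate 2 lay nearest to the TL mean. The comparison was also fitted without each library in turn.

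At an adjusted p below 0.05 in edgeR's quasi-likelihood test, 3 of the 40 tested members were upregulated in *panx1a*-/- larvae (*slc24a4a*, *slc24a2* and *slc8a2a*) and 3 were downregulated (*slc12a10.2*, *slc9a3.2* and *slc4a1b*). That is 7.5% of the members in each direction, no more than the 9.88% and 11.8% of all genes tested. Those that rose exchange Na+ for Ca2+ and are known from photoreceptors and neurons of fish or mammals, and those that fell carry Na+, Cl-, H+ or bicarbonate in skin ionocytes. The log2 fold changes ran from −3.16 to 1.90 with a median of −0.069, against a median of −0.063 over all genes tested. The genotypes did not overlap for 10 members (25.0%, against 47.5% of all genes tested), 5 of them lower and 5 higher in *panx1a*-/- larvae. The calls depended on which libraries were used. All 6 were kept without TL replicate 1 or without *panx1a*-/- replicate 2, fits that called 36.4% and 28.2% of all genes tested. With TL replicate 2, TL replicate 3, *panx1a*-/- replicate 1 or *panx1a*-/- replicate 3 left out, 0 members were called by edgeR's quasi-likelihood test, with 10, 8, 7 and 8 members at an unadjusted p below 0.05 in that order of the libraries. In those fits at most 1.1% of all genes tested were called. The share of all genes at an unadjusted p below 0.05 was not computed, so the member counts at that threshold have no background. With the share of reads matched to no gene feature added as a covariate, 0 members were called, and 0 had an unadjusted p below 0.05 (edgeR's quasi-likelihood test). That fit called 0 genes up and 1 down among all genes tested (0.00781%). *panx1a* itself was not called (adjusted p = 0.574, same test). As this share and the genotype cannot be told apart, the counts of that fit say little about the members. The log2 fold change in that fit was −1.96 (SE 0.87) for *slc12a10.2*, −0.63 (SE 0.78) for *slc9a3.2* and −0.18 (SE 0.87) for *slc4a1b*. It was 0.78 (SE 0.77) for *slc24a2*, 0.17 (SE 0.45) for *slc8a2a* and −0.29 (SE 0.38) for *slc24a4a*.

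**Figure D1:**
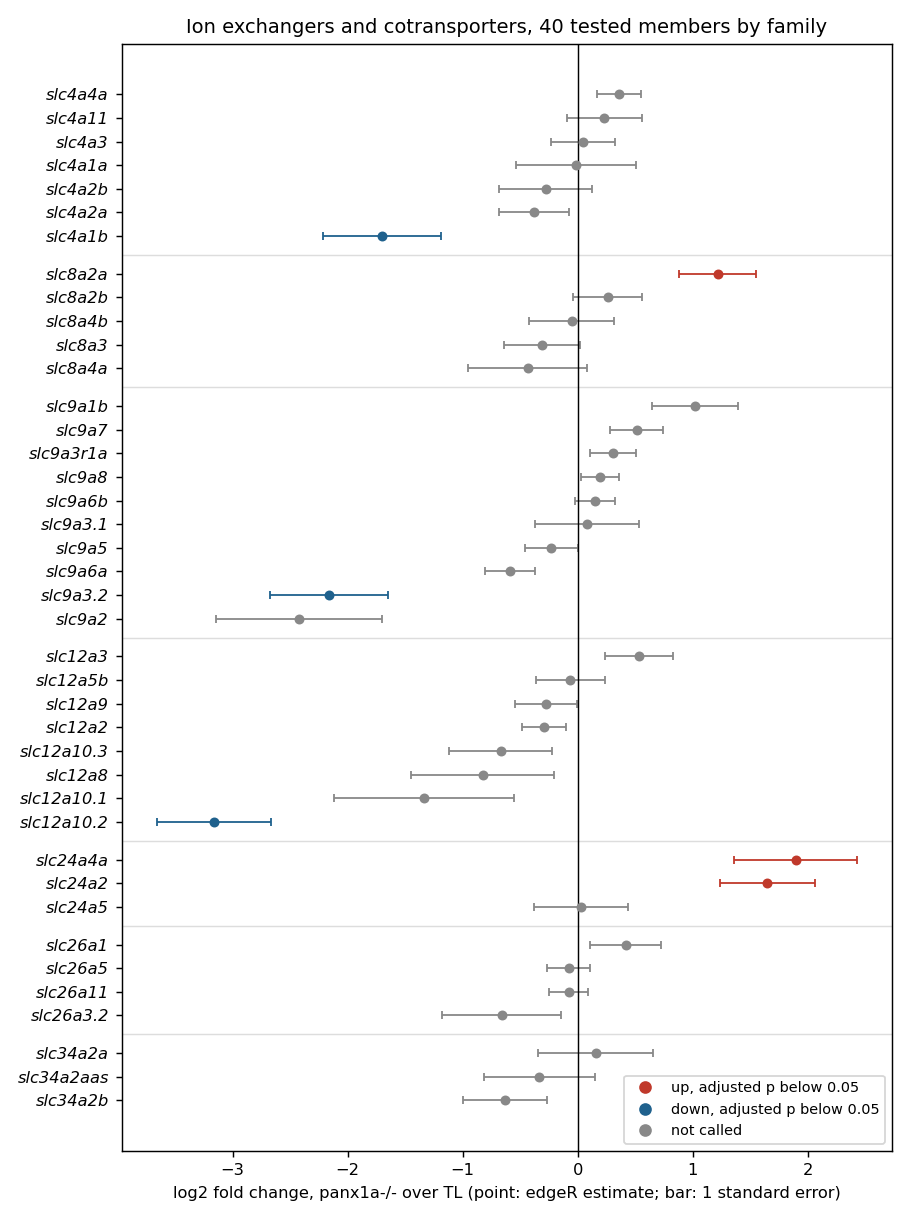
Log2 fold change of the 40 tested members, *panx1a*-/- over TL, with 1 standard error as the bar, grouped by family from Slc4 at the top to Slc34 at the bottom. Red points were called up, blue points down (adjusted p below 0.05, edgeR's quasi-likelihood test) and grey points were not called; the called members lie at −3.16 to −1.70 and at 1.22 to 1.90.

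The carriers of skin ionocytes held the members that fell. Of 14 symbols listed for these cells, with earlier results of these data known, 10 were members and 6 of them were tested. All 6 had a negative log2 fold change, with a median of −1.52, and 3 were downregulated (50.0%, against 11.8% of all genes tested). With 7, 55 and 7 counts in *panx1a*-/- libraries, *slc12a10.1* passed the filter on low counts only through the TL libraries, where it is higher (35, 35 and 113 counts). Its sign therefore carries no weight among the 6, and the median includes it. The median was −2.56 without *panx1a*-/- replicate 2. With the covariate it was −0.060, and *slc12a10.1* (0.85), *slc12a10.3* (0.66) and *slc26a3.2* (0.057) had positive values. The clearest was *slc12a10.2*, which encodes the Na+-Cl- cotransporter in the apical membrane of the NCC type of zebrafish ionocyte. Levels are given as CPM, counts scaled to a common library size with TMM factors; they are not per length and were not compared between genes. *slc12a10.2* had 12, 52 and 29 counts in *panx1a*-/- libraries, or 0.696, 2.76 and 2.02 CPM, against 178, 368 and 336 counts, or 9.72, 22.2 and 17.3 CPM, in TL libraries. Every *panx1a*-/- library was below every TL library. Its mean was 1.83 ± 1.05 CPM in *panx1a*-/- larvae and 16.4 ± 6.31 CPM in TL larvae (SD, n = 3 each), 8.95-fold lower in the fit (log2 fold change −3.16, SE 0.50, adjusted p = 0.0262, edgeR's quasi-likelihood test). Without single libraries it ranged between −3.62 and −2.76 on the log2 scale, with an adjusted p between 0.00776 and 0.117 (same edgeR test).

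*slc9a3.2* encodes the apical Na+/H+ exchanger of the H+-ATPase-rich ionocyte, which takes up Na+ in exchange for acid. It had 0.870, 3.61 and 1.60 CPM in *panx1a*-/- libraries, against 5.52, 10.8 and 11.3 CPM in TL libraries. The highest *panx1a*-/- library, replicate 2, was below the lowest TL library, replicate 1. The log2 fold change was −2.16 (SE 0.51, adjusted p = 0.0342, edgeR's quasi-likelihood test), and between −2.90 and −1.79 without single libraries (adjusted p between 0.00873 and 0.128). In the same cells, *slc4a1b* encodes the basolateral Cl-/bicarbonate exchanger. It had 0.754, 2.71 and 1.60 CPM in *panx1a*-/- libraries, against 3.00, 8.22 and 5.42 CPM in TL libraries. These values did not overlap, though *panx1a*-/- replicate 2 and TL replicate 1 were close. The log2 fold change was −1.70 (SE 0.51, adjusted p = 0.0494, edgeR's quasi-likelihood test), and between −2.24 and −1.31 without single libraries (adjusted p between 0.0214 and 0.152). The call was also lost with library size as the only scaling, where the log2 fold change was −1.42 (adjusted p = 0.0609, same edgeR test).

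The other ionocyte carriers did not pass the test. *slc12a10.1* and *slc12a10.3* lie beside *slc12a10.2* in the RefSeq annotation of zebrafish and encode its nearest relatives. *slc12a10.1* had 0.406, 2.92 and 0.487 CPM in *panx1a*-/- libraries, against 1.91, 2.12 and 5.83 CPM in TL libraries, and *panx1a*-/- replicate 2 lay inside the TL range (log2 fold change −1.33, adjusted p = 0.217, edgeR's quasi-likelihood test). *slc12a10.3* had 4.41, 14.0 and 6.74 CPM, against 8.79, 18.7 and 12.8 CPM in TL libraries (log2 fold change −0.67, adjusted p = 0.275, same test). Again only *panx1a*-/- replicate 2 reached into the TL range. Without it, both were called down (log2 fold change −2.87 and −1.26, adjusted p = 0.0206 and 0.0379, edgeR's quasi-likelihood test). In that fit too, *slc12a10.1* passed the filter only through the TL libraries, so its call carries no weight. That fit called 28.2% of all genes tested, against 21.6% with all libraries. *slc26a3.2*, a Cl-/bicarbonate exchanger, had 3.94, 2.92 and 6.88 CPM in *panx1a*-/- libraries and 2.90, 11.7 and 7.02 CPM in TL libraries, which overlapped throughout (log2 fold change −0.66, adjusted p = 0.345, edgeR's quasi-likelihood test).

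The remaining 4 ionocyte carriers failed the filter and are given by their counts. *slc26a3.1*, the neighbour of *slc26a3.2*, had 1, 1 and 0 counts in *panx1a*-/- libraries and 5, 7 and 5 in TL libraries, and it was called down when no filter was applied. *slc26a4*, which encodes the anion exchanger pendrin, had 6, 6 and 1 counts in *panx1a*-/- libraries and 9, 14 and 10 in TL libraries. *slc26a6l*, another anion exchanger, had 3, 5 and 0 counts, against 3, 6 and 3 in TL libraries. *slc8a1b*, the Na+/Ca2+ exchanger of Ca2+-transporting ionocytes, had 0 counts in every library, which allows up to 3 counts, or 0.155 to 0.209 CPM. The Ca2+ channel gene *trpv6* of the same cells was also listed at 0 throughout, as were some marker genes of other cell types, and whether reads of these genes could be assigned to their symbols was not tested.

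Outside the ionocyte list, *slc9a2* had the lowest log2 fold change of the Slc9 family. It encodes a Na+/H+ exchanger of the apical membrane of epithelia in mammals. It had 0.348, 4.09 and 1.18 CPM in *panx1a*-/- libraries, against 6.28, 14.8 and 9.65 CPM in TL libraries. The genotypes did not overlap, with *panx1a*-/- replicate 2 the highest of its group. The log2 fold change was −2.42 (SE 0.72) with an adjusted p of 0.0502 in edgeR's quasi-likelihood test, just short of the threshold. It was called by DESeq2, by edgeR's exact test, and without *panx1a*-/- replicate 2. Those fits called 31.4%, 30.8% and 28.2% of all genes tested, against 21.6% in the main fit. With RLE or upper-quartile factors *slc9a2* only just passed (adjusted p = 0.0497 and 0.0484, edgeR's quasi-likelihood test). Its adjusted p was between 0.00868 and 0.161 in edgeR fits without single libraries, and between 0.00283 and 0.999 over the other settings tried. With 6, 77 and 17 counts in *panx1a*-/- libraries and 115, 245 and 187 in TL libraries, *slc9a2* passed the filter on low counts only through the TL libraries, where it is higher. These calls therefore carry no weight.

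**Figure D2:**
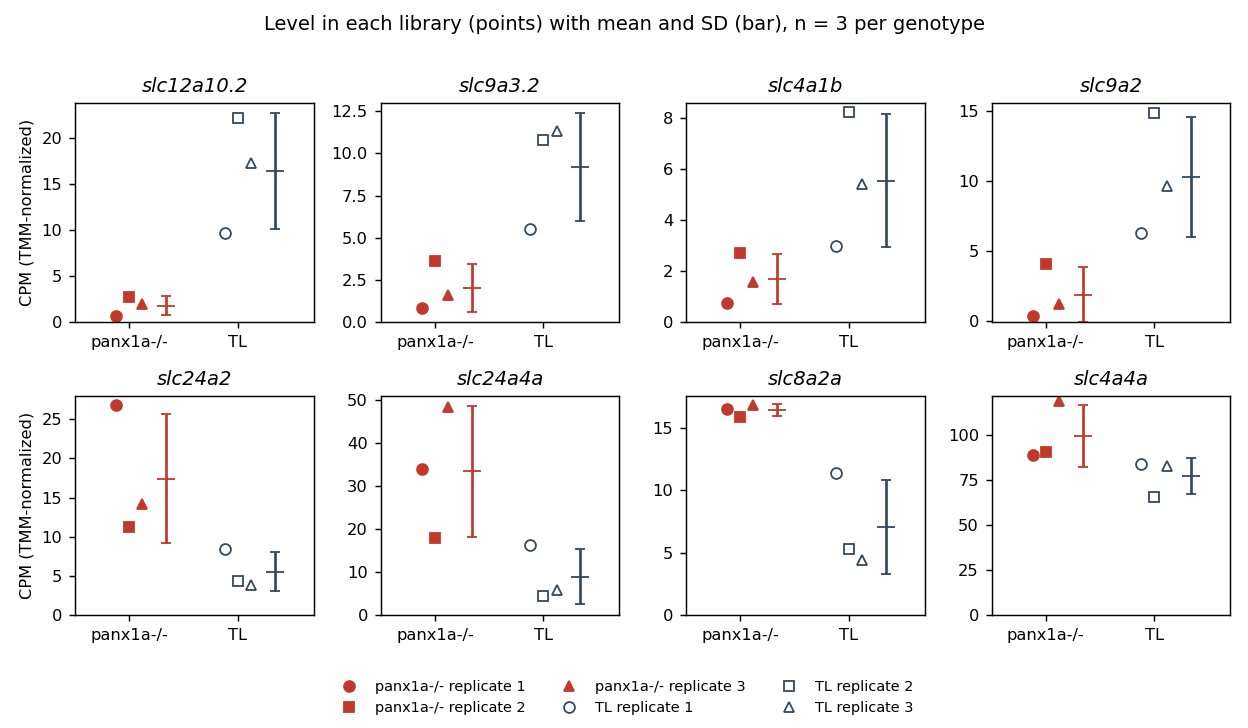
CPM (TMM-normalized, linear axis) of 8 members in each library, *panx1a*-/- on the left and TL on the right of each panel; the bar beside the points is the mean with its SD (n = 3 each). All 8 belong to the 10 members whose genotypes do not overlap (25.0% of the members tested, against 47.5% of all genes tested), so this separation reflects their choice. *slc12a10.2* lies at 0.696 to 2.76 CPM in *panx1a*-/- libraries and at 9.72 to 22.2 CPM in TL libraries.

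Markers of ionocytes moved with these carriers. Of 9 marker genes listed, 8 were tested and 4 were downregulated (50.0%, against 11.8% of all genes tested). Among them was *foxi3b*, a transcription factor of ionocyte progenitors, at 0.812, 3.88 and 1.88 CPM in *panx1a*-/- libraries and 8.25, 27.7 and 18.0 CPM in TL libraries (log2 fold change −3.02, adjusted p = 0.0298, edgeR's quasi-likelihood test). *gcm2*, which specifies the H+-ATPase-rich type, was at −2.41 on the log2 scale (adjusted p = 0.0488, same test), *ca15a*, a carbonic anhydrase of that type, at −2.61 (adjusted p = 0.0317) and *atp1b1b*, a Na+/K+-ATPase subunit, at −1.47 (adjusted p = 0.0319). *foxi3a*, at −2.24 on that scale, just missed the threshold (adjusted p = 0.0503, edgeR's quasi-likelihood test). *rhcgb* (log2 fold change −0.77, adjusted p = 0.303), *kcnj1a.1* (−0.90, adjusted p = 0.0980) and *atp6v1aa* (0.53, adjusted p = 0.121) were not called in this test. The 9 markers summed to 213 to 269 CPM in *panx1a*-/- libraries and 324 to 512 CPM in TL libraries, and of the defining genes only *trpv6* was at 0. The sum rests largely on *atp6v1aa* (107 to 172 CPM in *panx1a*-/- and 79.2 to 111 CPM in TL libraries) and *atp1b1b* (54.0 to 91.1 and 118 to 262 CPM). It therefore says little about the markers at low levels. The part of the markers in the change of the carriers was not tested.

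**Figure D3:**
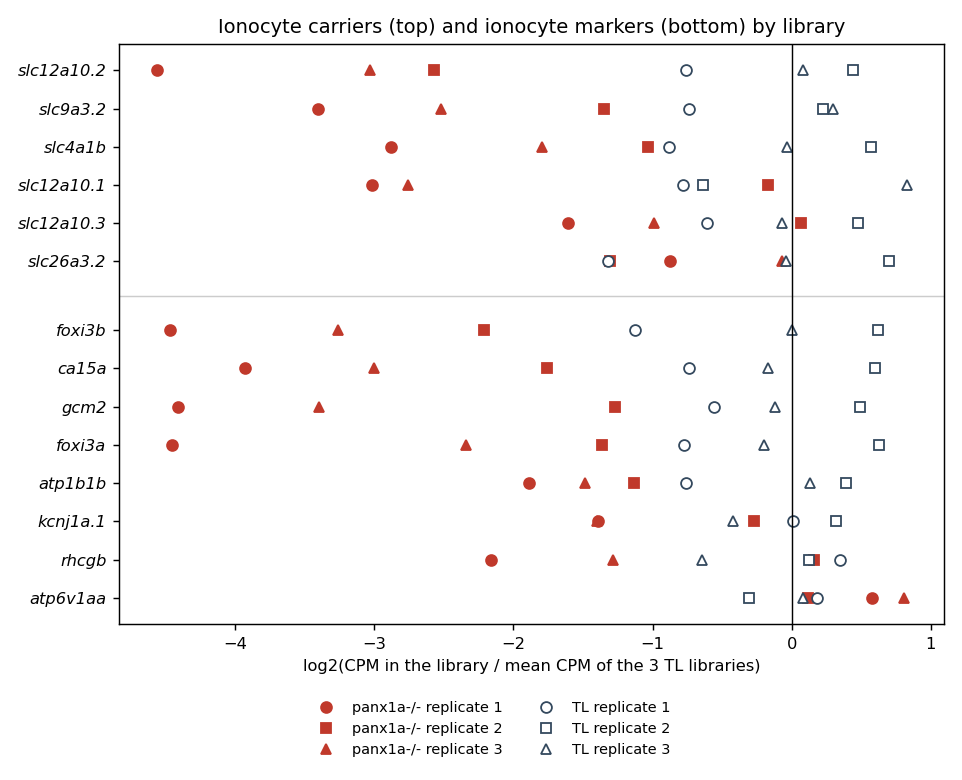
Ratio of each library's CPM to the mean of the 3 TL libraries, on a log2 axis, for the 6 tested ionocyte carriers (top) and the 8 tested ionocyte markers (bottom); filled red symbols are *panx1a*-/- libraries, open symbols TL libraries, and the shape gives the replicate. For *slc12a10.2*, *slc9a3.2* and *slc4a1b*, as for *foxi3b*, *ca15a*, *gcm2*, *foxi3a* and *atp1b1b*, *panx1a*-/- replicate 1 is lowest, and *panx1a*-/- replicate 2 and TL replicate 1 are the closest libraries of the 2 genotypes.

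Proteins that work with these carriers were taken as a list of 53 symbols, of which 39 were tested (6 of the 53 are also ionocyte markers and 1 a pronephros marker). In edgeR's quasi-likelihood test 12 were downregulated (30.8%, against 11.8% of all genes tested) and 3 upregulated (7.69%, against 9.88%), with a median log2 fold change of −0.41. Pumps and channels made up most of them, with 9 of 21 downregulated (42.9%, against 11.8% of all genes tested). Of the genes called down, *kcnj1a.2*, *kcnj1a.3*, *clcn2a* and *ca4a* passed the filter on low counts only through the TL libraries, where they are higher. Their calls carry no weight in the counts of 12 and 9. *rhbg*, an ammonia channel, fell to 104 ± 49.7 CPM in *panx1a*-/- larvae, against 484 ± 164 CPM in TL larvae (SD, n = 3 each; adjusted p = 0.0279, edgeR's quasi-likelihood test). *atp1a1a.2*, a Na+/K+-ATPase subunit, had a log2 fold change of −3.15 and *clcn2c*, a Cl- channel of NCC ionocytes, of −2.56. The K+ channel genes *kcnj1a.2*, *kcnj1a.3* and *kcnj1a.6* had −3.41, −2.95 and −2.62. Counts were low and spread widely: *kcnj1a.2* had 4, 12 and 8 in *panx1a*-/- libraries and 27, 147 and 98 in TL libraries. *kcnj1a.3* had 3, 27 and 16, against 37, 190 and 149 in TL libraries. *oxsr1b*, a kinase that activates Na+-Cl- cotransporters of the Slc12 family, fell by 0.92 on the log2 scale.

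Among the 3 partner genes that rose were *atp2b1a*, a plasma membrane Ca2+ pump, at 255 ± 75.1 CPM in *panx1a*-/- larvae and 115 ± 28.9 CPM in TL larvae (SD, n = 3 each), and *cahz*, a carbonic anhydrase, with a log2 fold change of 0.64. *stc1*, which encodes a stanniocalcin, a hormone that restrains Ca2+ uptake in fish, also rose (log2 fold change 2.30). It had 10, 11 and 12 counts in *panx1a*-/- libraries and 3, 1 and 3 in TL libraries, where it was at or below the detection floor of 3 counts. *stc1* passed the filter on low counts only through the *panx1a*-/- libraries, where it is higher, and its call carries no weight in the count of 3. The other stanniocalcin genes, *stc1l* and *stc2a*, were not called (log2 fold change −0.33 and −0.21, adjusted p = 0.415 and 0.497, edgeR's quasi-likelihood test). Without single libraries, between 0 and 17 partner genes were called down and between 0 and 4 up by edgeR's quasi-likelihood test. The 17 came without *panx1a*-/- replicate 2, in a fit that called 2076 of 12951 genes down and 28.2% of all genes in either direction. The 4 came from that fit and from the fit without TL replicate 1, which called 36.4%, against 21.6% with all libraries. The numbers down and up were both 0 without TL replicate 2, TL replicate 3, *panx1a*-/- replicate 1 or *panx1a*-/- replicate 3, fits that called at most 1.1% of all genes tested. There, 16, 17, 16 and 16 partner genes had an unadjusted p below 0.05 in that order of the libraries. These numbers too have no background, as the share of all genes at that unadjusted threshold was not computed.

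Carriers of the pronephros held no called member. Of 12 symbols listed, 7 were members and all were tested. In either direction 0 were called by edgeR's quasi-likelihood test, against 21.6% of all genes tested, and a list of 7 genes is too short for this to say much. There were also 0 at an unadjusted p below 0.05, and 0 called by DESeq2 or edgeR's exact test (31.4% and 30.8% of all genes tested). Their median log2 fold change was 0.16. *slc12a3*, the Na+-Cl- cotransporter of the distal pronephros, is a relative of *slc12a10.2*. It had 8.23, 8.34 and 6.74 CPM in *panx1a*-/- libraries, against 4.42, 7.92 and 3.82 CPM in TL libraries, where only TL replicate 2 reached the *panx1a*-/- range (log2 fold change 0.53, SE 0.30, adjusted p = 0.197, edgeR's quasi-likelihood test). *slc4a4a*, the Na+-bicarbonate cotransporter of the proximal pronephros, had 88.6, 90.3 and 119 CPM, against 83.6, 65.8 and 82.4 CPM in TL libraries. The genotypes did not overlap, but the difference did not pass the test (log2 fold change 0.36, SE 0.19, adjusted p = 0.179, edgeR's quasi-likelihood test).

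The other pronephros carriers overlapped between the genotypes. *slc26a1*, a sulfate and anion exchanger, had 3.54, 2.34 and 4.66 CPM in *panx1a*-/- libraries and 2.40, 3.02 and 2.43 CPM in TL libraries (log2 fold change 0.42). *slc4a2a*, a Cl-/bicarbonate exchanger, had 4.46, 4.73 and 2.92 CPM, against 3.50, 5.92 and 6.40 CPM in TL libraries (log2 fold change −0.38). *slc9a3.1*, the neighbour of *slc9a3.2* in the annotation and also an Na+/H+ exchanger, had 0.696, 2.18 and 0.973 CPM, against 1.37, 1.33 and 0.981 CPM in TL libraries (log2 fold change 0.085). The adjusted p-values of these 3 genes lay between 0.310 and 0.897 (edgeR's quasi-likelihood test).

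*slc34a2a* and *slc34a2b* encode Na+-phosphate cotransporters that also serve the gut. *slc34a2a* had 4.12, 3.56 and 8.20 CPM in *panx1a*-/- libraries and 2.35, 8.10 and 3.77 CPM in TL libraries, with 1 high library in each genotype (log2 fold change 0.16, SE 0.50). *slc34a2b* had 0.696, 1.22 and 0.973 CPM, against 1.26, 1.21 and 2.01 CPM in TL libraries (log2 fold change −0.63, adjusted p = 0.209, edgeR's quasi-likelihood test). The antisense RNA *slc34a2aas* had 13, 10 and 7 counts in *panx1a*-/- libraries and 14, 19 and 7 in TL libraries; the strand setting of the counting is not given, so its reads and those of *slc34a2a* cannot be told apart. Of 9 pronephros markers analysed, 7 were tested and 0 called by edgeR's quasi-likelihood test, against 21.6% of all genes tested (2 had an unadjusted p below 0.05). They summed to 62.8 to 90.2 CPM in *panx1a*-/- libraries and 75.4 to 96.2 CPM in TL libraries, with *slc13a1* at 0 throughout. Among the 6 enterocyte markers 0 were called, against the same 21.6% (2 at an unadjusted p below 0.05, same test). Their sum was 123 to 213 CPM in *panx1a*-/- libraries and 173 to 694 CPM in TL libraries. *slc12a1*, *slc4a4b* and *slc24a1* were not analysed here.

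Of the Slc24 exchangers, which remove Ca2+ in exchange for Na+ using the K+ gradient as well, 2 of 3 rose (66.7%, against 9.88% of all genes tested). *slc24a2*, the exchanger of cone photoreceptors, was the only gene of the photoreceptor list that could be tested. It had 462, 212 and 204 counts in *panx1a*-/- libraries, or 26.8, 11.3 and 14.2 CPM, against 154, 72 and 75 counts, or 8.41, 4.35 and 3.87 CPM, in TL libraries. The genotypes did not overlap, and *panx1a*-/- replicate 1 stood highest. The log2 fold change was 1.65 (SE 0.41, adjusted p = 0.0369, edgeR's quasi-likelihood test), a 3.14-fold difference, and ranged between 1.20 and 2.08 without single libraries (adjusted p between 0.0125 and 0.137).

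*slc24a4a* is a homologue of the mammalian gene for the exchanger of olfactory neurons. It had 34.03, 18.0 and 48.3 CPM in *panx1a*-/- libraries, against 16.3, 4.59 and 5.99 CPM in TL libraries. The lowest *panx1a*-/- library, replicate 2, was only just above the highest TL library, replicate 1. The mean was 33.5 ± 15.2 CPM in *panx1a*-/- larvae and 8.95 ± 6.38 CPM in TL larvae (SD, n = 3 each; log2 fold change 1.90, SE 0.54, adjusted p = 0.0457, edgeR's quasi-likelihood test), and ranged between 1.54 and 2.65 on the log2 scale without single libraries (adjusted p between 0.0110 and 0.154). Its sign turned (−0.29) when the share of reads matched to no gene feature entered the fit. *slc24a5*, which acts in the melanosomes of pigment cells, had 2.49, 0.850 and 2.16 CPM in *panx1a*-/- libraries and 1.64, 1.69 and 2.01 CPM in TL libraries. These overlapped, and the log2 fold change was 0.029 (SE 0.41). Of the 6 pigment cell markers analysed, 0 were called by edgeR's quasi-likelihood test (against 21.6% of all genes tested), also at an unadjusted p below 0.05. Their sum was 220 to 460 CPM in *panx1a*-/- libraries and 224 to 331 CPM in TL libraries.

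Of the Slc8 exchangers, *slc8a2a* rose. Its mammalian counterpart is an Na+/Ca2+ exchanger of brain neurons. It had 284, 299 and 242 counts in *panx1a*-/- libraries, or 16.5, 15.9 and 16.8 CPM, against 208, 88 and 86 counts, or 11.4, 5.32 and 4.44 CPM, in TL libraries. The *panx1a*-/- libraries were nearly alike, and TL replicate 1 stood above the other TL libraries. The log2 fold change was 1.22 (SE 0.34, adjusted p = 0.0419, edgeR's quasi-likelihood test), and between 0.97 and 1.75 without single libraries (adjusted p between 0.00443 and 0.140).

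The other Slc8 genes were not called. The paralogue *slc8a2b* had 7.83, 6.96 and 9.11 CPM in *panx1a*-/- libraries and 9.12, 4.05 and 6.71 CPM in TL libraries (log2 fold change 0.26, adjusted p = 0.517, edgeR's quasi-likelihood test). The lowest of the family was *slc8a4a*, of a branch that mammals lack, with 2.20, 1.81 and 3.82 CPM, against 4.92, 1.21 and 4.34 CPM in TL libraries (log2 fold change −0.43, SE 0.52). *slc8a3* and *slc8a4b* had log2 fold changes of −0.31 and −0.051, and both overlapped between the genotypes. *slc8a1a*, the exchanger of the heart, failed the filter with 2, 4 and 4 counts in *panx1a*-/- libraries and 9, 5 and 8 in TL libraries.

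Most markers of photoreceptors and neurons also rose with *slc24a2*, *slc24a4a* and *slc8a2a*. Of 12 photoreceptor markers analysed, 11 were tested and 9 upregulated (81.8%, against 9.88% of all genes tested). The 2 others, *rcvrna* (log2 fold change 0.45, adjusted p = 0.265) and *arr3b* (2.15, adjusted p = 0.0633), were not called by edgeR's quasi-likelihood test. The 12 markers summed to 2347 to 5398 CPM in *panx1a*-/- libraries and 1123 to 1871 CPM in TL libraries. The cone arrestin gene *arr3a* had 0 counts in every library. Of 7 neuron markers, 4 were upregulated (*elavl4*, *snap25b*, *syt1a* and *gap43*), which is 57.1%, against 9.88% of all genes tested. Not called were *stmn1b* (log2 fold change 0.79, adjusted p = 0.0747), *snap25a* (0.71, adjusted p = 0.143) and *elavl3* (−0.43, adjusted p = 0.268, edgeR's quasi-likelihood test). The 7 markers summed to 4635 to 6858 CPM in *panx1a*-/- libraries and 2008 to 4180 CPM in TL libraries, with none at 0. Their part in the change of the exchangers was not tested. The other neuronal carriers were not called. *slc12a5b*, the K+-Cl- cotransporter that keeps Cl- low in neurons, had 10.26, 6.80 and 9.39 CPM, against 8.25, 6.23 and 13.1 CPM in TL libraries (log2 fold change −0.062, SE 0.30). *slc9a5*, a neuronal Na+/H+ exchanger in mammals, had a log2 fold change of −0.23 (SE 0.23), and the 5 genes of the neuron list had a median of −0.062 (between −0.24 and 0.27 without single libraries).

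Of the Slc9 exchangers that serve most cells or their organelles, none was called by edgeR's quasi-likelihood test on all 6 libraries, against 21.6% of all genes tested. *slc9a1b*, of the exchanger that regulates pH in most cells, had the highest log2 fold change of the family, with 4.70, 4.84 and 3.68 CPM in *panx1a*-/- libraries and 2.79, 2.72 and 1.03 CPM in TL libraries (log2 fold change 1.02, SE 0.38, adjusted p = 0.0768, edgeR's quasi-likelihood test). The genotypes did not overlap, and the gene was called by DESeq2 and edgeR's exact test, which called 31.4% and 30.8% of all genes tested. Of the 4 genes for endosomal and Golgi exchangers, *slc9a6a* had 3.59, 3.51 and 3.62 CPM in *panx1a*-/- libraries, against 4.48, 5.44 and 6.20 CPM in TL libraries (log2 fold change −0.59, SE 0.22, adjusted p = 0.0799, edgeR's quasi-likelihood test). The libraries did not overlap, and it was called down without TL replicate 1, in a fit that called 36.4% of all genes tested. *slc9a7*, *slc9a8* and *slc9a6b* had log2 fold changes of 0.51, 0.20 and 0.15 and overlapped between the genotypes, as did the scaffold gene *slc9a3r1a* (0.31). Of these, *slc9a7* was called up without TL replicate 1.

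The remaining members were not called on all 6 libraries and overlapped between the genotypes. *slc4a1a*, the anion exchanger of red cells, had 2.32, 6.70 and 1.39 CPM in *panx1a*-/- libraries and 3.88, 3.87 and 2.89 CPM in TL libraries, close to level at −0.015 on the log2 scale (SE 0.53). Of the 4 red cell markers tested, 0 were called by edgeR's quasi-likelihood test, against 21.6% of all genes tested (1 at an unadjusted p below 0.05). The red cell markers summed to 44.9 to 54.3 CPM in *panx1a*-/- libraries and 48.5 to 128 CPM in TL libraries, with *hbbe2* at 0 throughout. *slc26a5*, which encodes prestin, the motor protein of outer hair cells in mammals, had 34.4, 48.1 and 34.3 CPM, against 45.6, 42.3 and 35.5 CPM in TL libraries (log2 fold change −0.077, SE 0.19). *slc12a2*, the Na+-K+-2Cl- cotransporter of secretory epithelia and many other cells, had a log2 fold change of −0.29 (SE 0.19). The log2 fold changes of *slc12a8* (−0.83), *slc4a2b* (−0.28), *slc12a9* (−0.27), *slc26a11* (−0.077), *slc4a3* (0.050) and *slc4a11* (0.23) completed the set. For *slc12a8* only *panx1a*-/- replicate 2 reached into the TL range, and the gene was called down without that library. It passed the filter on low counts only through the TL libraries, where it is higher, so that call carries no weight.

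The share of a carrier in the reads of its nearest paralogues is read within each library and needs no scaling between libraries. It was computed for 9 sets of members, chosen after their values were seen. *slc12a10.2* took 12.6%, 14.0% and 21.8% of the reads of *slc12a10.1*, *slc12a10.2* and *slc12a10.3* in *panx1a*-/- libraries, against 47.6%, 51.7% and 48.3% in TL libraries. The 95% Wilson intervals reached no higher than 29.6% in *panx1a*-/- libraries and no lower than 42.6% in TL libraries, and they cover counting error only. The mean share was 16.2% ± 4.94 in *panx1a*-/- larvae and 49.2% ± 2.19 in TL larvae (SD, n = 3 each; exact two-sided permutation p = 0.1, the smallest that 3 libraries against 3 allow, or 0.18 after Benjamini-Hochberg adjustment over the 9 sets). Here *panx1a*-/- replicate 3, not replicate 2, lay nearest to the TL libraries.

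*slc9a3.2* took 55.6%, 62.4% and 62.2% of the reads it shared with *slc9a3.1* in *panx1a*-/- libraries, against 80.2%, 89.0% and 92.0% in TL libraries. The genotypes did not overlap, but the *panx1a*-/- shares rest on 27, 109 and 37 reads. *slc8a2a* took 67.8%, 69.5% and 64.9% of the reads of the *slc8a2* pair in *panx1a*-/- libraries, against 55.5%, 56.8% and 39.8% in TL libraries. *slc9a6a* took 13.2%, 14.0% and 12.8% of its pair, against 15.3%, 23.6% and 23.4% in TL libraries. *slc26a3.2* took 98.2% to 100% of its pair in *panx1a*-/- libraries and 91.4% to 96.5% in TL libraries. That difference rests on 1, 1 and 0 counts of *slc26a3.1* in *panx1a*-/- libraries, below the floor of 3 counts. Unlike for *slc12a10.2*, the 95% Wilson intervals of the genotypes overlapped for *slc9a3.2*, *slc8a2a*, *slc9a6a* and *slc26a3.2*. In all, 5 of the 9 sets did not overlap between the genotypes, each with an exact permutation p of 0.1. By level, 47.5% of all genes tested did not overlap either. Shares were not computed for paralogue sets outside the members, so this count has no background of its own.

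The shares overlapped in the other 4 sets. *slc4a1b* took 24.5%, 28.8% and 53.5% of the reads it shared with *slc4a1a* in *panx1a*-/- libraries, against 43.7%, 68.0% and 65.2% in TL libraries, where *panx1a*-/- replicate 3 passed TL replicate 1. The mean shares of *slc4a2a*, *slc8a4a* and *slc34a2a* in their pairs were 62.6%, 42.3% and 83.1% in *panx1a*-/- larvae and 65.6%, 44.1% and 72.4% in TL larvae, with exact permutation p-values between 0.3 and 0.9. Paralogues with similar sequence can lose reads that align to more than a single place, and how far this touched the counts was not tested.

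**Figure D4:**
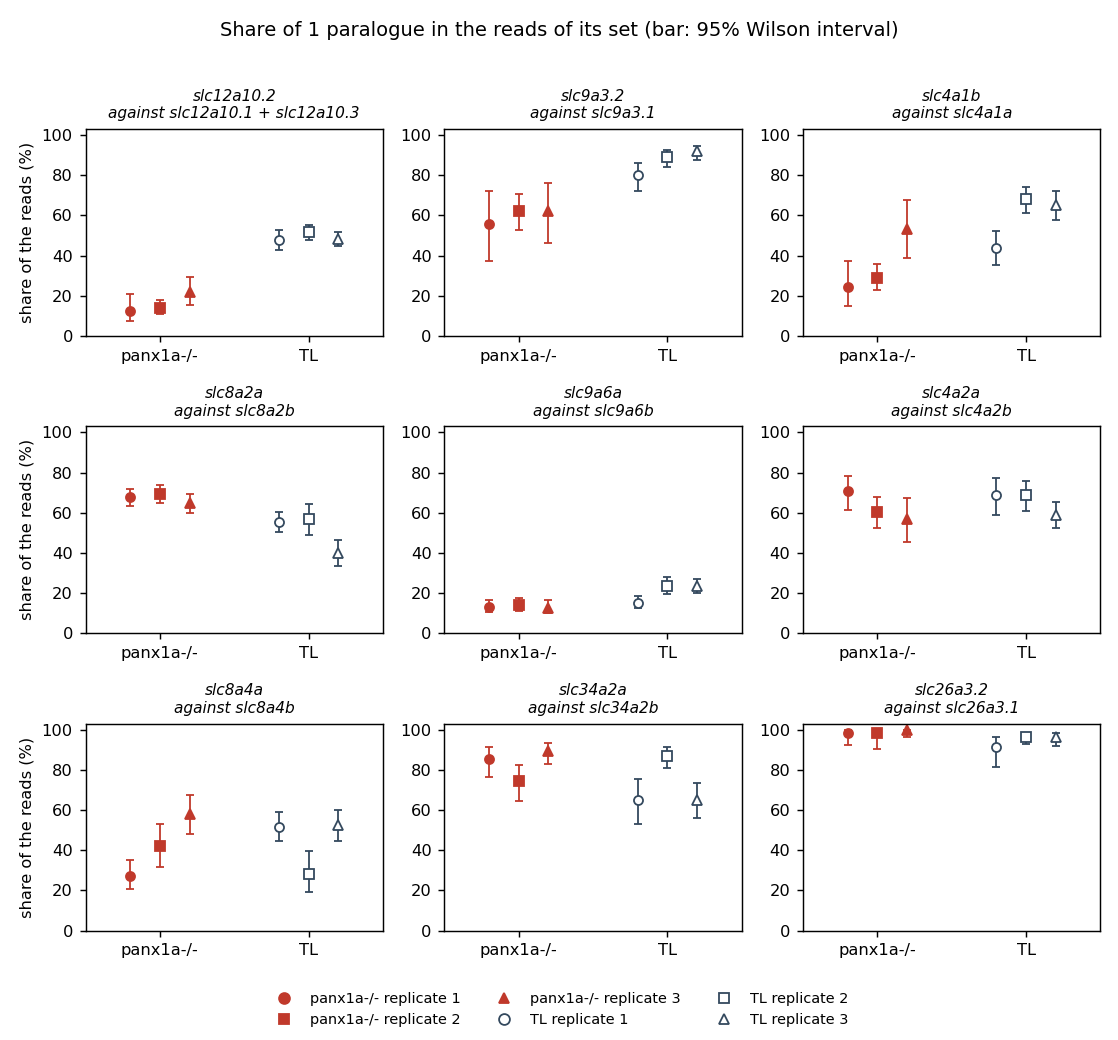
Share of the named member in the reads counted on its set of paralogues, in percent, for each *panx1a*-/- library (left, filled) and TL library (right, open), with the 95% Wilson interval as the bar. The *slc12a10.2* share is 12.6% to 21.8% in *panx1a*-/- libraries and 47.6% to 51.7% in TL libraries, while *slc4a2a*, *slc8a4a*, *slc34a2a* and *slc4a1b* overlap.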

How the data were processed

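Zebrafish RNA-seq libraries were compared, 3 *panx1a*-/- against 3 TL. The files deposited by the authors hold unnormalized read counts by gene symbol, 1 file per library. The submitters' processing notes name Trim Galore 0.4.4, TopHat2 2.0.11, HTSeq 0.6.1p2 and danRer11; the annotation and strand setting are not given in the sources used here. The 5 rows that name no gene were left out of library sizes. Of the uniquely aligned reads, 30.2% to 59.4% were matched to no gene feature and 0.102% to 0.177% to several.

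Counts were filtered, TMM-normalized and tested by edgeR's quasi-likelihood test (edgeR 4.0.16, R 4.3.3) on 12797 genes, with genotype as the only factor and Benjamini-Hochberg adjustment over all of them. Standard errors are the log2 fold change divided by the square root of F. The biological coefficient of variation was 0.254. The lowest detectable value was taken as 3 counts. Libraries of a genotype differed beyond sampling noise (chi-square over degrees of freedom 46.7 to 197). The code was tested on simulated counts with 200 genes changed 4-fold: 97.4% were recovered, with 4.04% false calls, on 12698 genes. Every simulated gene had the same dispersion and no library stood apart, so these rates check the code and need not hold for the data.

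Members and lists were chosen with earlier results of these data known. Named were all tested genes of the ionocyte, kidney and photoreceptor lists, other called members, and the highest and lowest of each family; further members were named to complete their role list, family or paralogue set, and partner and marker genes to describe their lists, after their values were seen. Alternatives were DESeq2 1.42.0, edgeR's exact test, other scalings, no filter, a replicate block, the share of reads matched to no gene feature as a covariate, and leaving out each library. Current symbols and neighbours came from RefSeq's GRCz12tu annotation, where all 45 members matched, 2 of them by synonym; its coordinates are of another build than the counts and are not given.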

Additional observations from a re-analysis of the deposited data

Results flagged for a closer look

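Reads matched to no gene feature, which enter no comparison of the carriers, amounted to 51.6%, 48.4% and 59.4% of uniquely aligned reads in *panx1a*-/- libraries and to 42.9%, 30.2% and 30.7% in TL libraries. The lowest *panx1a*-/- library (48.4%) exceeded the highest TL library.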

How the results depend on the processing

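With a library left out, between 0 and 4 members were called up and between 0 and 7 down, also with carriers alone, and 0 to 4 partner genes up and 0 to 17 down. These fits called between 0.0233% and 36.4% of all genes tested. The 7 and the 17 came without *panx1a*-/- replicate 2, where 28.2% of all genes tested were called. The median log2 fold change then lay between −0.17 and −0.081 for the members, −2.56 and −1.12 for the ionocyte list, 0.016 and 0.39 for the kidney list, 1.20 and 2.08 for the photoreceptor list (*slc24a2* alone), −0.24 and 0.27 for the neuron list and 0.085 and 0.32 for the endosome and Golgi list. *panx1a* lay between −2.90 and −2.62, with adjusted p-values up to 0.0649. With the share of reads matched to no gene feature as a covariate, edgeR's quasi-likelihood test called 0 members up and 0 down (0 at an unadjusted p below 0.05). It called 0 partner genes up and 0 down, and 0.00781% of all genes tested. *panx1a* had −2.38 (adjusted p = 0.574, same test). The medians were −0.060 (ionocyte), 0.78 (photoreceptor) and −0.27 (endosome and Golgi). In that fit the signs turned for *slc12a10.1* (0.85), *slc12a10.3* (0.66), *slc4a2a* (0.84), *slc26a3.2* (0.057), *slc24a4a* (−0.29), *slc24a5* (−0.35), *slc4a4a* (−0.10) and *slc26a1* (−0.048); the cause was not tested. Upper-quartile factors gave medians of −0.18 (members), −0.18 (neuron) and 0.065 (endosome and Golgi), and library size alone 0.15 (members), 0.14 (neuron), 0.38 (endosome and Golgi) and 0.47 (kidney), with the median of all genes tested at −0.17 and 0.17. Signs also turned for genes near 0: *slc24a5* with upper-quartile factors (−0.087), the block (−0.043) and in 4 of the 6 fits without a library (range −0.27 to 0.39); *slc9a3.1* with upper-quartile factors (−0.015), the block (−0.032) and in 2 such fits (−0.55 to 0.39); and *slc34a2a* in 2 such fits (−0.29 to 0.77). The replicate numbers do not pair the libraries by any label. Deviations of same-numbered libraries correlated with r from 0.08 to 0.30, and 4 of 6 libraries correlated best with their own number. The replicate block gave 5 members up and 5 down, also with carriers alone, and called 30.3% of all genes tested. Beyond the 6, it called *slc9a1b* and *slc9a7* up and *slc12a10.3* and *slc9a2* down. DESeq2 and edgeR's exact test each called 4 members up and 4 down. They called 31.4% and 30.8% of all genes tested, against 21.6% in the main fit. Members at a few counts are limited by depth.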
